A study of Mus musculus with 22 samples.

Results

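The unfolded protein response (UPR) was followed in the hypothalamus of lean mice given celastrol, through 34 genes chosen by name from the pathway. Each was found on the array by its gene symbol in the platform annotation, and all 34 were present among 18704 genes with a single symbol, on 38 probe sets. Of the 34, 32 were bright enough to be tested, among 9880 tested genes. The animals were 8-week-old male C57BL/6J mice with no transgene, on normal chow for 2 weeks. Celastrol was injected intraperitoneally and the hypothalamus was taken after 6 h (4 arrays), 1 day (3 arrays) or 4 days (3 arrays), and DMSO, the vehicle, was injected into 4 mice at each time. The labels give the dose, 250 µg/kg, beside the 6 h group only, and a DMSO volume of 25 µl per day. Another volume is noted for the 1 day and 4 day celastrol groups, and whether all celastrol groups had the same dose is not clear from the labels. They call the arrays biological replicates, 22 in all.

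The endoplasmic reticulum (ER) folds secreted and membrane proteins, and when unfolded protein builds up, the membrane sensors IRE1 (encoded by Ern1), PERK (Eif2ak3) and ATF6 start the UPR. IRE1 splices Xbp1 mRNA so that it encodes an active factor, PERK lowers translation and favours that of ATF4, and cleaved ATF6 enters the nucleus. The targets of these factors are chaperones, disulfide isomerases, the machinery of ER-associated degradation (ERAD) and, under prolonged stress, CHOP (Ddit3). In hypothalamic neurons ER stress is linked to resistance to leptin, and celastrol, a plant triterpenoid, is known as a leptin sensitizer in obese mice that has been proposed to act by lowering ER stress.

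In these lean mice no UPR gene passed the test for a rise or a fall with celastrol, at 6 h, 1 day or 4 days. Between celastrol and DMSO arrays the log2 changes of the 32 tested genes lay between -0.11 and 0.19 at 6 h, between -0.18 and 0.10 at 1 day, and between -0.11 and 0.083 at 4 days. The largest change was a fold of 1.14 for Creld2 at 6 h, and the lowest fold was 0.880, for Manf at 1 day. At an adjusted p under 0.05 in limma (Benjamini-Hochberg over all tested genes), 0 of 32 UPR genes passed at each time and on the average of the 3 times. Over all 9880 genes the share that passed was 0% at 6 h, 0% at 1 day, 0.0506% at 4 days and 0.0607% on the average, so few genes of any kind passed. The lowest adjusted p of a UPR gene was 0.895 at 6 h, 0.659 at 1 day, 1.00 at 4 days and 1.00 on the average.

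The absence of calls came with narrow intervals. The pointwise 95% interval of every tested UPR gene lay within a 1.3-fold change in either direction at 6 h, 1 day and 4 days, and within 1.2-fold for 30, 31 and 32 of the 32 genes at these times. The median standard error of a log2 change was 0.050 at 6 h, 0.053 at 1 day and 0.053 at 4 days. These are changes of array intensity, which can understate a change of RNA. In whole hypothalamus, fewer cells of a type and less RNA per cell cannot be told apart.

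**Figure D1:**
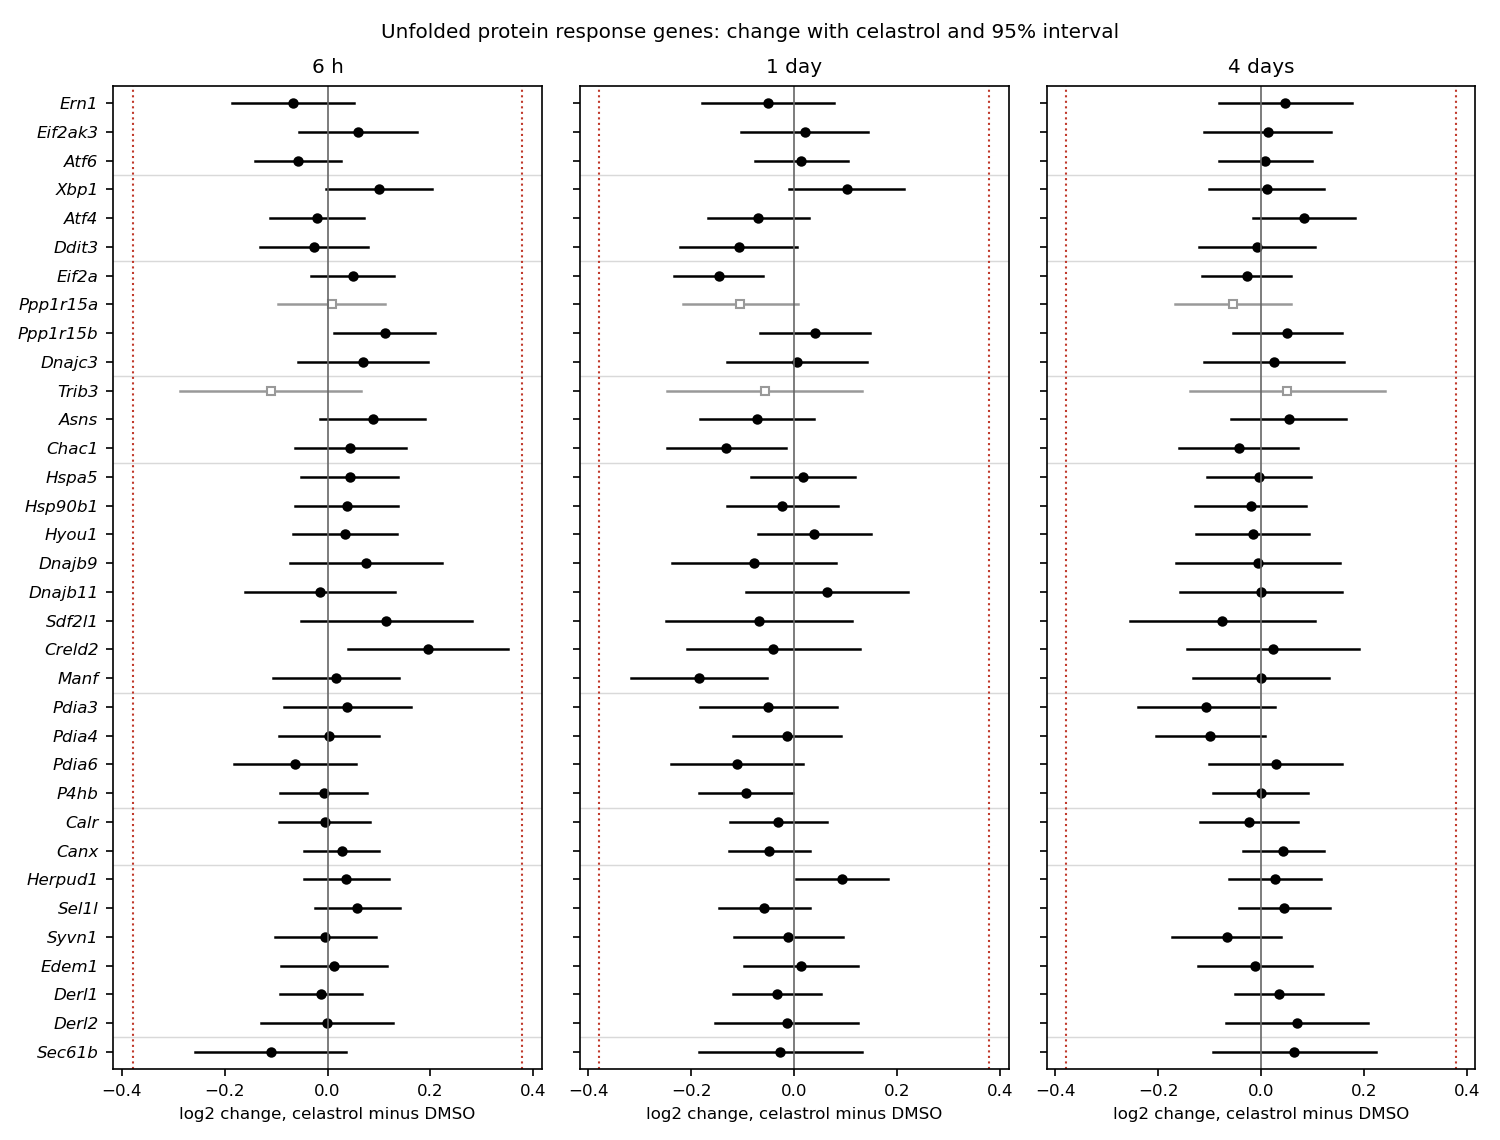
Log2 change of each of the 34 UPR genes (rows, grouped by role) with celastrol against DMSO at 6 h, 1 day and 4 days. Points are limma estimates from 4 celastrol arrays at 6 h and 3 at 1 day and 4 days, against 4 DMSO arrays at each time, bars are pointwise 95% intervals, red dotted lines mark a 1.3-fold change, and open grey squares are the 2 genes too dim to be tested. All bars of the tested genes lie inside the dotted lines.

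As a group the UPR genes had median changes close to those of all tested genes, while their counts differed more at 1 day. Their median log2 change was 0.031 at 6 h, where that of all tested genes was 0.020, -0.032 at 1 day, beside -0.014 for all, and 0.0044 at 4 days, beside 0.0083 for all. Without celastrol replicate 2 the 1 day median was 7.3e-05. With celastrol 20 of 32 had a higher mean at 6 h (62.5%, against 65.4% of all tested genes), 10 at 1 day (31.2%, against 41.2%) and 17 at 4 days (53.1%, against 56.4%). At an unadjusted p under 0.05 there were 2 UPR genes at 6 h, both higher (6.25% of 32, background 5.11%). At 1 day there were 5, of which 1 was higher and 4 lower (15.6%, background 6.66%), at 4 days 0 (background 3.66%), and on the average of the times 3, all higher (9.38%, background 4.00%). The groups did not overlap, with celastrol the higher one, for 0 UPR genes at 6 h (background 2.26%), 1 at 1 day (background 1.81%) and 1 at 4 days (background 4.27%). With celastrol the lower one this held for 0 at 6 h (background 0.506%), 2 at 1 day (background 4.36%) and 2 at 4 days (background 2.05%).

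The arrays were alike in level, with medians of 8.58 to 8.66 on the log2 scale. Each array's mean correlation to its group was between 0.989 and 0.995. All 5 neuron markers, 9 of 10 measured hypothalamic markers and all 6 astrocyte markers were above the array median in all 22 arrays. Of 7 pituitary markers 0 were, but growth hormone (Gh) varied, and the mean of the pituitary list ranged from 7.16 to 7.72 in celastrol arrays and from 7.19 to 9.42 in DMSO arrays at 6 h. At 1 day it ranged from 7.43 to 7.65 in celastrol arrays and from 7.16 to 8.28 in DMSO arrays, and at 4 days from 7.18 to 9.16 in celastrol arrays and from 7.04 to 7.74 in DMSO arrays. Its part in the results was not tested. Of 6 choroid plexus markers 0 were above the median in all arrays and 4 in none, Ttr among them. Celastrol replicate 2 and DMSO replicate 1 at 1 day had the lowest mean correlations to their groups, 0.990 and 0.989. The 1 day changes of Ddit3, Eif2a, Chac1 and Manf without both arrays are given with these genes.

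Some promoters of UPR genes hold known elements. The ER stress response element (ERSE), bound by NF-Y with ATF6 or XBP1, is CCAAT, then 9 bases, then CCACG, and ERSE-II, found at Herpud1, is ATTGG, 1 base, then CCACG. Promoter windows of 250 bases before to 50 after the transcript start, in the RefSeq table for GRCm38.p6, were found for 29 of the 34 genes and searched on both strands. The ERSE stood in 8 of the 29 genes (27.6%), against 0.137% of all 27025 genes and 0.119% of their 32851 promoter windows. ERSE-II stood in 2 other genes (6.9%), against 0.0444% of all genes and 0.0365% of windows. The sites are shown with 10 bases on either side, along the gene's own strand, because the element is the textbook site of ATF6 and XBP1 in UPR genes. Exact matches alone were searched, so a gene without one may hold a variant. Capitals mark the element from its first to its last letter, and where it lies on the opposite strand CGTGG comes first.
Hspa5 (ERSE, chr2:34772015-34772053, + strand): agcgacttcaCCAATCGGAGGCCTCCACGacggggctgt
Hsp90b1 (ERSE, chr10:86705628-86705666, - strand): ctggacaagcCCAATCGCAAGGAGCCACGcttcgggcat
Hsp90b1 (ERSE on the opposite strand, chr10:86705523-86705561, - strand): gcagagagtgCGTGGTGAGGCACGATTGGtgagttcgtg
Dnajc3 (ERSE, chr14:118937817-118937855, + strand): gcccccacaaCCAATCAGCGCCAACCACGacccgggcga
Pdia6 (ERSE, chr12:17266481-17266519, + strand): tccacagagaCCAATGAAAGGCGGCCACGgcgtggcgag
Creld2 (ERSE on the opposite strand, chr15:88819510-88819548, + strand): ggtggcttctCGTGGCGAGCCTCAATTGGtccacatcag
Calr (ERSE on the opposite strand, chr8:84847065-84847103, - strand): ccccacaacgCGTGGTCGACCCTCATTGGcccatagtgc
Canx (ERSE, chr11:50325790-50325828, - strand): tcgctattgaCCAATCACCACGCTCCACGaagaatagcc
Syvn1 (ERSE, chr19:6046522-6046560, + strand): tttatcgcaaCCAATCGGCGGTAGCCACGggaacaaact
Herpud1 (ERSE-II, chr8:94386367-94386397, + strand): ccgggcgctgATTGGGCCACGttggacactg
Dnajb11 (ERSE-II, chr16:22857842-22857872, + strand): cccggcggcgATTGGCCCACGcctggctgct

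The Hspa5 element lay 65 to 47 bases before the transcript start and the ERSE-II of Herpud1 52 to 42 bases before it, while that of Dnajb11 lay just past the start. The other ERSE copies began 44 (Syvn1) to 212 (Hsp90b1) bases before the start. CCACG alone, which is also part of both elements, stood in 22 of the 29 genes (75.9%), against 35.5% of all genes and 32.8% of windows. The UPR element TGACGTGG, an XBP1 and ATF6 site, stood in 0 of the 29 (0.714% of all genes), and the composite C/EBP-ATF site TGATG, 1 base, AAT, bound by ATF4 with C/EBP factors, also in 0 (1.08% of all genes). These are matches of letters, and binding was not measured.

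The 10 genes with an ERSE or ERSE-II had no call at any time. Their median log2 change with celastrol was 0.032 at 6 h, beside 0.039 for the 17 tested genes whose window had neither. At 1 day it was -0.018, beside -0.058, and at 4 days 0.012, beside -0.0011. Of the 10, 6 had a higher mean with celastrol at 6 h, 4 at 1 day and 6 at 4 days.

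Among the sensors, 0 of 3 passed the test at any time. Ern1, the kinase and endonuclease IRE1, had log2 values of 9.02, 8.96, 9.13 and 8.98 in celastrol hypothalami at 6 h, against 8.92, 9.06, 9.21 and 9.15 in DMSO hypothalami. At 1 day the Ern1 values were 9.19, 8.98 and 9.15 with celastrol, against 9.08, 9.14, 9.22 and 9.19 with DMSO, and at 4 days 9.15, 9.21 and 9.23 with celastrol, against 9.08, 9.13, 9.19 and 9.20 with DMSO. The groups overlapped at each time, with the lowest DMSO array of Ern1 at 6 h below all celastrol arrays. The change of Ern1 was -0.068 (SE 0.057, unadjusted p = 0.251, adjusted p = 0.928) at 6 h, -0.051 (SE 0.062, unadjusted p = 0.416, adjusted p = 0.882) at 1 day and 0.047 (SE 0.062, unadjusted p = 0.452, adjusted p = 1.00) at 4 days. At 6 h it was -0.12 without DMSO replicate 1 and -0.025 without DMSO replicate 3. The 1 day change of Ern1 turned to 0.012 without celastrol replicate 2. Atf6, the factor released from the ER membrane, had values of 9.86, 9.95, 10.03 and 9.98 with celastrol at 6 h, against 9.95, 10.02, 10.01 and 10.06 with DMSO, a change of -0.057 (SE 0.040, unadjusted p = 0.173, adjusted p = 0.905) with overlapping groups. The change of Atf6 was 0.013 at 1 day and 0.0081 at 4 days. Eif2ak3, the kinase PERK, had changes of 0.059 at 6 h, 0.020 at 1 day and 0.013 at 4 days.

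Xbp1 was the transcription factor whose mean was higher with celastrol at all 3 times, and it did not pass the test at any. Its log2 values at 6 h were 11.53, 11.45, 11.47 and 11.40 with celastrol, against 11.41, 11.37, 11.27 and 11.39 with DMSO. At 1 day they were 11.50, 11.43 and 11.38 with celastrol, against 11.39, 11.32, 11.40 and 11.23 with DMSO, and at 4 days 11.30, 11.45 and 11.39 with celastrol, against 11.40, 11.27, 11.45 and 11.34 with DMSO. At 6 h all but 1 of the celastrol arrays stood above the highest DMSO array, and at 4 days the arrays were mixed. The change of Xbp1 was 0.10 (SE 0.050, unadjusted p = 0.0586, adjusted p = 0.895) at 6 h, with an exact permutation p of 0.0571, where 0.0286 is the smallest p the design allows. It was 0.10 (SE 0.054, unadjusted p = 0.0734, adjusted p = 0.720) at 1 day and 0.011 (SE 0.054, unadjusted p = 0.840, adjusted p = 1.00) at 4 days. On the average of the times Xbp1 had a change of 0.071 (SE 0.030, unadjusted p = 0.0296, adjusted p = 1.00), with 9 of 10 celastrol arrays above their DMSO mean and an exact permutation p of 0.0320. A gene-level probe set does not separate spliced from unspliced Xbp1 mRNA, so these values say nothing on IRE1 activity.

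Atf4, the factor translated when PERK is active, had log2 values of 8.91, 8.95, 8.97 and 8.94 with celastrol at 6 h, against 8.95, 9.03, 8.90 and 8.98 with DMSO. At 1 day its values were 8.84, 8.97 and 8.96 with celastrol, against 9.05, 8.98, 8.95 and 8.99 with DMSO. At 4 days they were 9.02, 8.88 and 8.995 with celastrol, against 8.87, 8.80, 8.89 and 8.97 with DMSO. The groups overlapped at each time. The change of Atf4 was -0.020 (SE 0.044, unadjusted p = 0.653, adjusted p = 0.976) at 6 h, -0.070 (SE 0.048, unadjusted p = 0.154, adjusted p = 0.769) at 1 day and 0.083 (SE 0.048, unadjusted p = 0.0946, adjusted p = 1.00) at 4 days. Without celastrol replicate 1 the 1 day change was -0.027. ATF4 is set largely by translation, which RNA does not show.

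Ddit3, which encodes the pro-apoptotic factor CHOP, lay close to the array median, and was above it in 8 of 10 celastrol and 10 of 12 DMSO arrays. Its log2 values at 6 h were 8.60, 8.60, 8.63 and 8.64 with celastrol, against 8.67, 8.64, 8.52 and 8.75 with DMSO. At 1 day they were 8.67, 8.54 and 8.53 with celastrol, against 8.81, 8.55, 8.68 and 8.70 with DMSO, and at 4 days 8.69, 8.67 and 8.75 with celastrol, against 8.68, 8.70, 8.74 and 8.72 with DMSO. DMSO replicate 1 at 1 day was the highest Ddit3 array of all 22, and the 1 day groups overlapped. The change of Ddit3 was -0.026 (SE 0.051, unadjusted p = 0.617, adjusted p = 0.974) at 6 h, -0.11 (SE 0.055, unadjusted p = 0.0612, adjusted p = 0.720) at 1 day and -0.0080 (SE 0.055, unadjusted p = 0.886, adjusted p = 1.00) at 4 days. Without celastrol replicate 2 and DMSO replicate 1 the change at 1 day was -0.045. On the average of the times it was -0.047 (SE 0.031, unadjusted p = 0.140, adjusted p = 1.00).

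**Figure D2:**
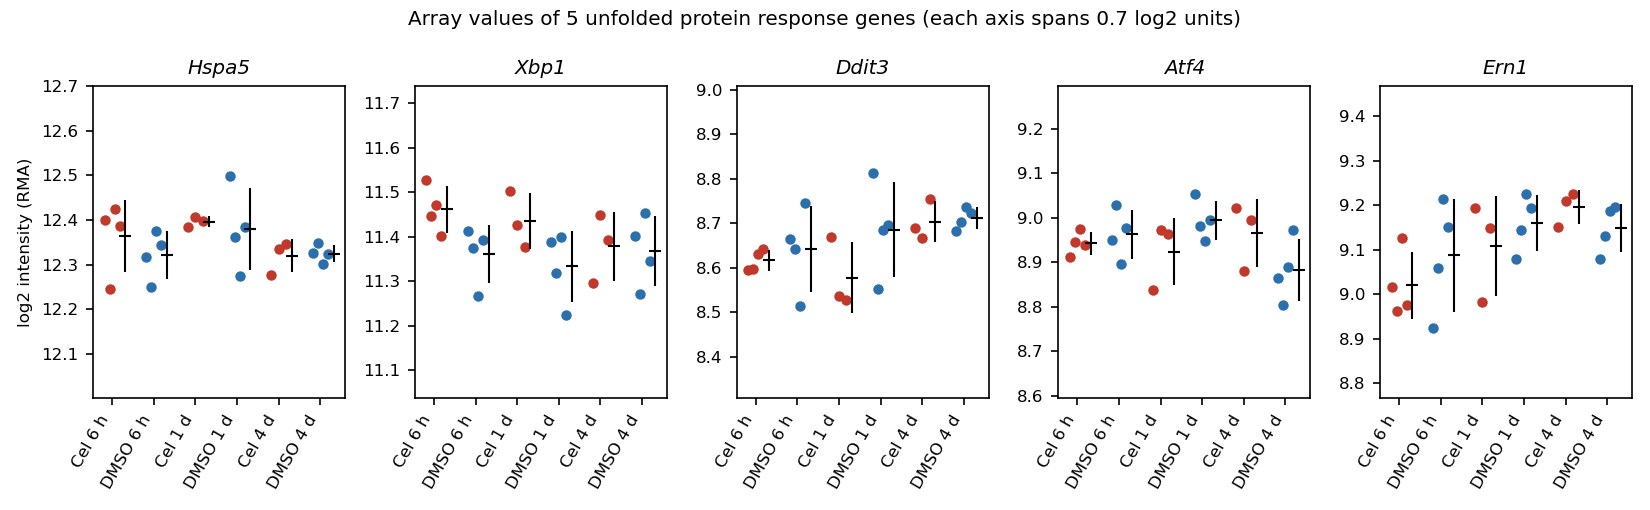
RMA log2 intensity of Hspa5, Xbp1, Ddit3, Atf4 and Ern1 in each array (dots), with celastrol in red (Cel, 4 arrays at 6 h, 3 at 1 day and 4 days) and DMSO in blue (4 arrays at each time). The dash and bar beside each group are its mean and SD, each panel has its own axis of the same span, and in all 5 panels the celastrol and DMSO arrays of each time overlap.

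Eif2a had the lowest p of all UPR genes for celastrol against DMSO, at 1 day, and still did not pass the test. It encodes initiation factor eIF2A, which is not the alpha subunit of eIF2 that PERK phosphorylates. Its log2 values at 1 day were 9.88, 9.76 and 9.85 with celastrol, against 9.99, 10.02, 9.91 and 9.98 with DMSO, so all celastrol arrays lay below all DMSO arrays. The change was -0.15 (SE 0.042, unadjusted p = 0.00194, adjusted p = 0.659), with an exact permutation p of 0.0571. At 6 h the Eif2a values were 9.91, 9.84, 9.97 and 9.92 with celastrol, against 9.86, 9.87, 9.83 and 9.89 with DMSO, and here the celastrol mean was higher, by 0.049 (SE 0.039, unadjusted p = 0.220, adjusted p = 0.919). At 4 days the change was -0.028, and on the average -0.042 (SE 0.024, unadjusted p = 0.0885, adjusted p = 1.00). Without the pair of least typical arrays the 1 day change of Eif2a was -0.11.

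Ppp1r15b, a regulatory subunit that brings phosphatase PP1 to phosphorylated eIF2 alpha, had log2 values of 8.63, 8.62, 8.74 and 8.55 with celastrol at 6 h, against 8.45, 8.54, 8.58 and 8.53 with DMSO. All celastrol arrays but the lowest exceeded all DMSO arrays, and the change was 0.11 (SE 0.048, unadjusted p = 0.0295, adjusted p = 0.895). It was 0.040 at 1 day, 0.051 at 4 days and 0.067 (SE 0.029, unadjusted p = 0.0295, adjusted p = 1.00) on the average. This gene was near the brightness cut-off for testing, the array median, and exceeded it in 7 of 10 celastrol and 3 of 12 DMSO arrays. Its other probe set, with a mean of 7.80, was above the median in 0 arrays. Dnajc3, the PERK inhibitor p58IPK and an ER co-chaperone, had changes of 0.069 at 6 h, 0.0051 at 1 day and 0.025 at 4 days. Ppp1r15a, the stress-induced GADD34 that ends the translational block, and Trib3, a pseudokinase induced through ATF4 and CHOP, were below the array median in all 22 arrays and were not tested. The values of Ppp1r15a ranged from 7.84 to 8.12 in celastrol arrays and from 7.95 to 8.14 in DMSO arrays, and those of Trib3 from 7.55 to 7.87 in celastrol arrays and from 7.56 to 7.98 in DMSO arrays.

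Both tested targets of ATF4 and CHOP missed the threshold at each time. Chac1, which degrades glutathione, had log2 values at 1 day of 9.10, 9.14 and 9.24 with celastrol, against 9.34, 9.35, 9.24 and 9.25 with DMSO. Only the highest celastrol array reached the DMSO range, and the change was -0.13 (SE 0.056, unadjusted p = 0.0269, adjusted p = 0.713), with an exact permutation p of 0.0571. The change of Chac1 was 0.044 at 6 h, -0.044 at 4 days and, at 1 day without the pair of least typical arrays, -0.11. Asns, asparagine synthetase, had values at 4 days of 12.08, 12.05 and 12.12 with celastrol, against 12.05, 11.996, 12.04 and 12.04 with DMSO. It was the 1 UPR gene with non-overlapping groups and celastrol the higher at that time, with a change of 0.053 (SE 0.053, unadjusted p = 0.329, adjusted p = 1.00). The change of Asns was 0.088 at 6 h and -0.072 at 1 day.

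Hspa5, which encodes BiP, the main ER chaperone and the standard readout of the UPR, did not pass the test at any time. Its log2 values at 6 h were 12.40, 12.25, 12.43 and 12.39 with celastrol, against 12.32, 12.25, 12.38 and 12.34 with DMSO. At 1 day they were 12.39, 12.41 and 12.40 with celastrol, against 12.50, 12.36, 12.27 and 12.38 with DMSO, and at 4 days 12.28, 12.34 and 12.35 with celastrol, against 12.33, 12.35, 12.30 and 12.32 with DMSO. The groups overlapped at each time, and the highest array was a DMSO one of 1 day. The change of Hspa5 was 0.043 (SE 0.045, unadjusted p = 0.352, adjusted p = 0.964) at 6 h, 0.017 (SE 0.049, unadjusted p = 0.733, adjusted p = 0.965) at 1 day and -0.0049 (SE 0.049, unadjusted p = 0.921, adjusted p = 1.00) at 4 days. At 6 h it was 0.019 without DMSO replicate 2 and 0.082 without celastrol replicate 2. As folds, the 95% intervals of Hspa5 ran from 0.966 to 1.10 at 6 h, from 0.943 to 1.09 at 1 day and from 0.929 to 1.07 at 4 days.

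Creld2, an ER protein with disulfide isomerase activity induced by ER stress, had the highest change of the UPR genes, at 6 h. Its log2 values were 9.86, 9.61, 9.92 and 9.77 with celastrol, against 9.54, 9.70, 9.66 and 9.47 with DMSO. The second celastrol replicate fell among the DMSO arrays and the other 3 were above them all. The change was 0.19 (SE 0.075, unadjusted p = 0.0163, adjusted p = 0.895), with an exact permutation p of 0.0857. It was -0.041 at 1 day and 0.023 at 4 days. Sdf2l1, a cofactor of BiP, had a 6 h change of 0.11, and its values ran from 9.52 to 9.90 with celastrol, against 9.57 to 9.72 with DMSO.

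Manf, a secreted trophic factor that is held in the ER and released under ER stress, had the lowest change of the UPR genes, at 1 day. Its log2 values were 9.06, 8.79 and 8.94 with celastrol, against 9.05, 9.08, 9.22 and 9.11 with DMSO. The highest celastrol array lay inside the DMSO range and the other pair below it. The change was -0.18 (SE 0.064, unadjusted p = 0.00840, adjusted p = 0.698), with an exact permutation p of 0.0571. Celastrol replicate 2 was the lowest array of its group of 3 for 15 of the 32 genes, a count not made over all genes. Without this array and DMSO replicate 1 the change of Manf was -0.14. Without celastrol replicate 2 alone it was -0.12, and without celastrol replicate 1 -0.25. The change of Manf was 0.016 at 6 h, -0.00059 at 4 days and -0.056 (SE 0.036, unadjusted p = 0.131, adjusted p = 1.00) on the average.

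Dnajb11, a BiP co-chaperone, had log2 values at 1 day of 9.27, 9.21 and 9.32 with celastrol, against 9.16, 9.25, 9.19 and 9.22 with DMSO, a change of 0.064 (SE 0.076, unadjusted p = 0.409, adjusted p = 0.879) with overlapping groups. The remaining chaperones were Hsp90b1 (the ER HSP90, GRP94), Hyou1 (a nucleotide exchange factor of BiP) and Dnajb9 (a BiP co-chaperone that restrains IRE1). Over the 8 chaperones and cofactors the changes lay between -0.014 and 0.19 at 6 h, between -0.18 and 0.064 at 1 day, and between -0.075 and 0.023 at 4 days.

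Pdia4, one of the protein disulfide isomerases that form and reshuffle disulfide bonds in the ER, had log2 values at 4 days of 10.72, 10.74 and 10.63 with celastrol, against 10.83, 10.76, 10.77 and 10.81 with DMSO. All celastrol arrays were below all DMSO arrays, with a change of -0.098 (SE 0.051, unadjusted p = 0.0660, adjusted p = 1.00) and an exact permutation p of 0.0286, the smallest the design allows. Pdia3, the isomerase that works with calnexin and calreticulin, had values of 11.73, 11.57 and 11.56 with celastrol, against 11.69, 11.78, 11.69 and 11.74 with DMSO, and 1 celastrol array lay inside the DMSO range. The change of Pdia3 was -0.11 (SE 0.064, unadjusted p = 0.112, adjusted p = 1.00). P4hb, the founding isomerase of the family, had all celastrol arrays below all DMSO arrays at 1 day, the nearest pair by less than the rounding, with values of 10.64, 10.65 and 10.69 with celastrol, against 10.80, 10.69, 10.74 and 10.77 with DMSO. Its change was -0.094 (SE 0.044, unadjusted p = 0.0445, adjusted p = 0.720). The 4 isomerases, Pdia6 included, had changes between -0.063 and 0.039 at 6 h, between -0.11 and -0.014 at 1 day, and between -0.11 and 0.028 at 4 days.

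Canx, the membrane-bound lectin chaperone calnexin, had log2 values at 4 days of 13.40, 13.44 and 13.38 with celastrol, against 13.33, 13.39, 13.39 and 13.34 with DMSO. The lowest celastrol array fell inside the DMSO range, and the change was 0.043 (SE 0.038, unadjusted p = 0.270, adjusted p = 1.00). Its 95% interval ran from -0.036 to 0.12. Its soluble relative Calr, calreticulin, had changes of -0.0058 at 6 h, -0.031 at 1 day and -0.024 at 4 days.

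Herpud1, a scaffold of the ERAD complex, was the 1 UPR gene with non-overlapping groups and celastrol the higher at 1 day. Its log2 values were 11.40, 11.41 and 11.40 with celastrol, against 11.29, 11.26, 11.36 and 11.33 with DMSO. The change was 0.093 (SE 0.043, unadjusted p = 0.0432, adjusted p = 0.720), with an exact permutation p of 0.0571. It was 0.037 at 6 h, 0.028 at 4 days and 0.052 (SE 0.024, unadjusted p = 0.0427, adjusted p = 1.00) on the average. Sel1l, the adaptor of the ubiquitin ligase encoded by Syvn1, had values at 4 days of 11.65, 11.72 and 11.72 with celastrol, against 11.62, 11.63, 11.71 and 11.66 with DMSO, overlapping groups and a change of 0.045 (SE 0.043, unadjusted p = 0.298, adjusted p = 1.00). Syvn1, the ligase HRD1, had values of 10.04, 10.06 and 10.04 with celastrol at 4 days, against 10.11, 10.11, 10.08 and 10.14 with DMSO. For Syvn1 all celastrol arrays lay below all DMSO arrays, and the change was -0.066 (SE 0.051, unadjusted p = 0.207, adjusted p = 1.00). So at 4 days the ligase and its adaptor had changes of opposite sign, neither past the test.

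Edem1, which hands misfolded glycoproteins to degradation, and Derl1 and Derl2, membrane proteins of the export step, had overlapping celastrol and DMSO arrays at each time. The 6 ERAD genes had changes between -0.013 and 0.058 at 6 h, between -0.058 and 0.093 at 1 day, and between -0.066 and 0.070 at 4 days. Sec61b, a subunit of the channel that brings new proteins into the ER, had log2 values at 6 h of 9.13, 8.97, 9.03 and 8.98 with celastrol, against 9.17, 8.98, 9.13 and 9.27 with DMSO. A low DMSO replicate 2 made the groups overlap, and the change was -0.11 (SE 0.071, unadjusted p = 0.131, adjusted p = 0.895). It was -0.027 at 1 day and 0.064 at 4 days. These values are of the brightest Sec61b probe set, with a mean of 9.15. The other Sec61b probe sets had means of 6.88 and 8.19 and were above the array median in 0 arrays.

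**Figure D3:**
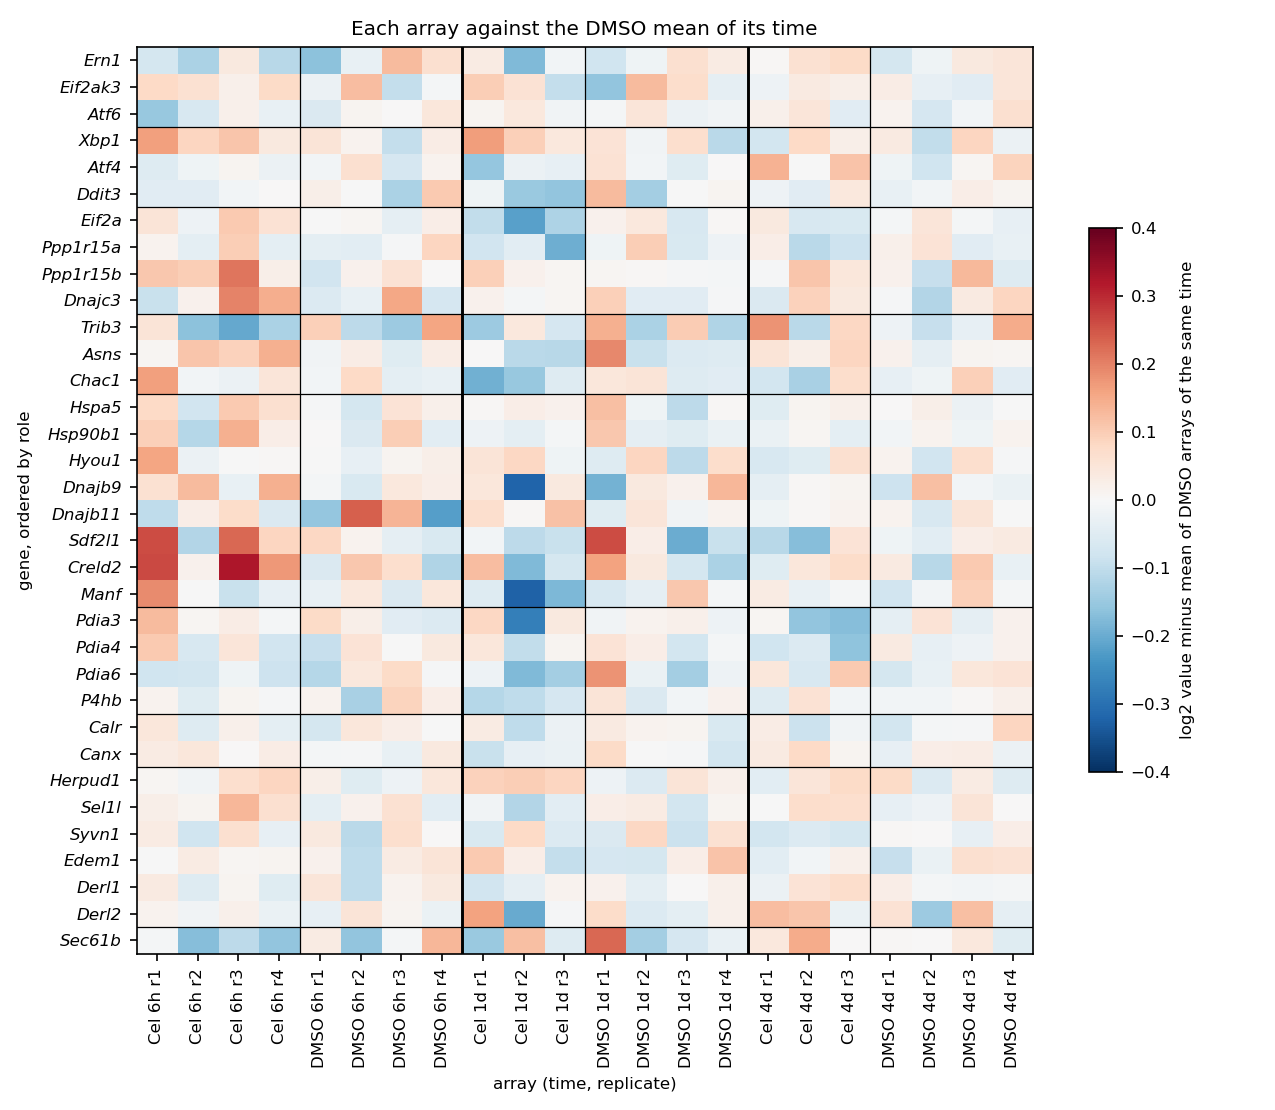
Log2 value of each UPR gene (rows, by role) in each array (columns, Cel for celastrol, r for replicate) minus the mean of the DMSO arrays of the same time, in colour from -0.4 to 0.4. No column group of celastrol arrays is of 1 colour across the rows, and the darkest cells lie in single arrays, such as Creld2 and Sdf2l1 in celastrol replicates 1 and 3 at 6 h and Manf and Dnajb9 in celastrol replicate 2 at 1 day.

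The difference of the celastrol effect between times was tested for each gene, and 0 of 32 passed in each of the 3 differences, as did 0% of all 9880 genes. For 1 day minus 6 h the effect on Eif2a differed by -0.20 (SE 0.057, unadjusted p = 0.00234, adjusted p = 0.581) and that on Chac1 by -0.18 (SE 0.076, unadjusted p = 0.0297, adjusted p = 0.583), in both cases with a higher celastrol mean at 6 h and a lower one at 1 day. Between 4 days and 6 h the lowest p were those of Pdia3, with a difference of -0.14 (SE 0.088, unadjusted p = 0.112, adjusted p = 0.997), and Sec61b, with 0.17 (SE 0.10, unadjusted p = 0.107, adjusted p = 0.997). Between 4 days and 1 day they were those of Atf4, with 0.15 (SE 0.067, unadjusted p = 0.0327, adjusted p = 0.814), and Manf, with 0.18 (SE 0.090, unadjusted p = 0.0535, adjusted p = 0.814). The 3 differences share groups, so they are not independent of each other. Their intervals were wider: 29 of 32 genes lay within 1.3-fold for 1 day minus 6 h, 29 for 4 days minus 6 h and 32 for 4 days minus 1 day.

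The vehicle groups were also compared between times. No UPR gene passed, beside 0% of all genes for 1 day minus 6 h, 0.253% for 4 days minus 6 h and 0.152% for 4 days minus 1 day. The lowest adjusted p of the UPR genes were here, but more genes of any kind also had a small p. For 1 day minus 6 h, 5 UPR genes were higher and 0 lower at an unadjusted p under 0.05 (all genes: 1148 and 241). For 4 days minus 6 h these were 1 and 2 (all: 1135 and 372), and for 4 days minus 1 day 0 and 5 (all: 756 and 692). All 4 day arrays lay below all 1 day arrays for 4 UPR genes (12.5%), against 501 of 9880 genes. The lowest unadjusted limma p, 0.00194 for Eif2a at 1 day, was with celastrol. Chac1 had a change of -0.18 (SE 0.052, unadjusted p = 0.00258, adjusted p = 0.138) in DMSO mice at 4 days against 1 day, with values of 9.09, 9.10, 9.21 and 9.07 at 4 days, all below the 9.34, 9.35, 9.24 and 9.25 at 1 day. Asns had a change of -0.14 (SE 0.049, unadjusted p = 0.00790, adjusted p = 0.188), with values of 12.05, 11.996, 12.04 and 12.04 at 4 days, all below the 12.37, 12.09, 12.12 and 12.12 at 1 day. Manf, with -0.17 (SE 0.059, unadjusted p = 0.00876, adjusted p = 0.193), showed the same order of arrays in DMSO mice, its 4 day values all being below those of 1 day. For 1 day against 6 h the lowest p were those of P4hb, with a change of 0.13 (SE 0.041, unadjusted p = 0.00508, adjusted p = 0.186), and Eif2a, with 0.11 (SE 0.039, unadjusted p = 0.00795, adjusted p = 0.212), and for 4 days against 6 h those of Derl1, with -0.089 (SE 0.038, unadjusted p = 0.0293, adjusted p = 0.275), and P4hb, with 0.088 (SE 0.041, unadjusted p = 0.0430, adjusted p = 0.306). P4hb values in DMSO mice were 10.80, 10.69, 10.74 and 10.77 at 1 day, against 10.64, 10.49, 10.71 and 10.65 at 6 h. Eif2a, P4hb, Manf and Chac1 were thus the genes with an unadjusted p under 0.05 and a lower celastrol mean at 1 day, and the DMSO group of 1 day that they were set against is shared by both kinds of comparison.

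To see which UPR genes varied together among animals of a group, the deviations from group means were correlated over the 22 arrays for the 496 pairs of tested UPR genes. No pair passed Benjamini-Hochberg adjustment of permutation p-values over the 496 pairs. The pair with the highest correlation was Hspa5 and Hsp90b1, at r = 0.84 and rho = 0.66 (permutation p = 0.00049 and adjusted p = 0.121 for r). Without the 2 arrays farthest from the median of Hspa5 r was 0.71, and it was 0.88 over celastrol arrays and 0.83 over DMSO arrays. Ddit3 and Asns had r = 0.77 and rho = 0.73 (permutation p = 0.0003 and adjusted p = 0.121 for r), 0.63 without the 2 farthest arrays, 0.82 over celastrol arrays and 0.75 over DMSO arrays. Hsp90b1 ranked 3 among the 9879 other genes by its correlation with Hspa5, and Asns ranked 3 by that with Ddit3. Both pairs were picked for their low p in these same data. The genes nearest to Hspa5 were Dlg1 (r = 0.85) and Cmpk2 (r = 0.84), which are not among the UPR genes. Those nearest to Ddit3 were Adh5 (r = 0.81) and Atpif1 (r = 0.78), also from outside them. No UPR gene was among the 5 nearest to Xbp1, Atf4 or Ern1. Over all pairs r exceeded 0.6 for 4.03% of their pairs and for 2.74% of all gene pairs, and the median r was 0.073 among them and 0.057 among all. The arrays share the normalization, and pairs of genes are not independent. Within groups, the deviations of Hspa5, Hsp90b1, Ddit3 and Asns correlated with the array median at 0.37, 0.42, 0.18 and 0.32. With the array's mean correlation to its group the values were -0.31, -0.26, -0.45 and -0.57. The part of such array differences in these pairs was not tested.

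A wider circle of 102 pathway genes also had no call. Of these, 93 were measured and 74 tested, and 0 passed with celastrol against DMSO at 6 h, 1 day, 4 days or on the average. The 74 had a median log2 change of 0.019 at 6 h, -0.025 at 1 day and 0.0078 at 4 days. They comprised 20 genes of the integrated stress response, 19 of ER translocation, 12 of ER folding, 13 of ERAD and 10 regulators of ER stress. At 1 day 18 of the 19 translocation genes had a lower celastrol mean, with a median of -0.042, but 15 of them had a higher one at 6 h, with a median of 0.024, and 9 at 4 days. The DMSO group of 1 day itself was high for this list. In DMSO mice 15 of the 19 were higher at 1 day than at 6 h (median 0.087, 64.4% of all tested genes higher). At 4 days 3 were higher than at 1 day (median -0.045, 49.2% of all higher). Of all tested genes, 65.4% had a higher celastrol mean at 6 h, 41.2% at 1 day and 56.4% at 4 days.

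Of these, Ddit4 came closest to the threshold with celastrol against DMSO. It encodes REDD1, an inhibitor of mTORC1 induced by ATF4 and also by glucocorticoids and hypoxia. At 4 days its log2 values were 9.60, 9.52 and 9.66 with celastrol, against 8.95, 9.11, 9.35 and 9.16 with DMSO, with no overlap. The change was 0.45 (SE 0.088, unadjusted p = 3.65e-05, adjusted p = 0.0601 in limma). At 1 day its values were 9.50, 9.82 and 9.62 with celastrol, against 9.45, 9.24, 9.40 and 9.48 with DMSO, a change of 0.26 (adjusted p = 0.698) with groups apart. At 6 h they were 9.05, 9.21, 9.26 and 9.31 with celastrol, against 9.47, 9.25, 9.51 and 9.31 with DMSO, a change of -0.18 (adjusted p = 0.895). The effect at 4 days minus that at 6 h was 0.63 (adjusted p = 0.280), which did not pass. A lower DMSO level is part of it: in DMSO mice Ddit4 changed by -0.24 at 4 days against 6 h (SE 0.081, unadjusted p = 0.00709, adjusted p = 0.193 in limma). Mthfd2, a mitochondrial folate enzyme and ATF4 target, had a change of -0.18 at 1 day (adjusted p = 0.698), opposite in sign to that of Ddit4. Among the DMSO groups Ssr4, a subunit of the translocon-associated protein complex, had a lower adjusted p than Ddit4, 0.0580, with a change of -0.17 at 4 days against 1 day.

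**Figure D4:**
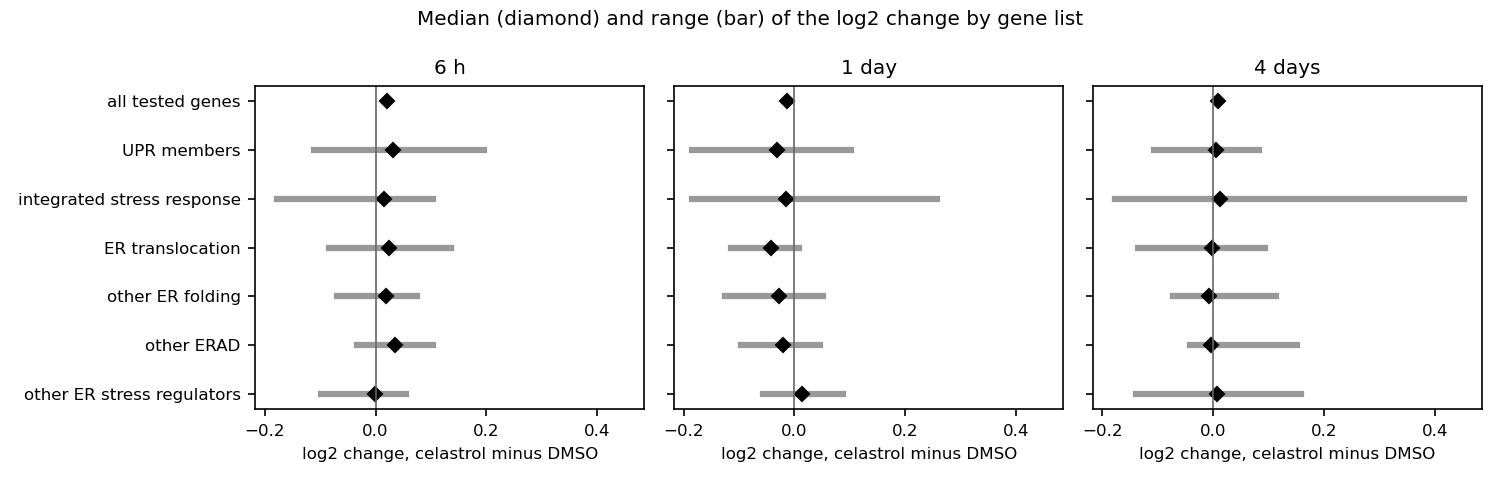
Median (diamond) and range (bar) of the log2 change, celastrol minus DMSO, at 6 h, 1 day and 4 days for the 32 tested UPR genes, for 5 lists of other pathway genes (10 to 20 tested genes each), and the median alone for all 9880 tested genes. The medians lie near 0 in each panel, and the long bar of the integrated stress response list at 4 days ends at Ddit4, at 0.45.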

How the data were processed

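Hypothalamic RNA of 22 mice was measured on Affymetrix whole-transcript arrays. The deposited values are log2 intensities per probe set that the authors made with RMA (background correction, quantile normalization and probe summary), per the submitters' processing notes, with the version not given in the sources used here. Quantile normalization aligns the arrays before the probe summary, so a shift of most genes at once can be reduced in these values.

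Symbols came from the platform annotation, and of 23492 probe sets 20228 had exactly 1, 1399 several and 1865 none. A gene with several probe sets was represented by the one with the highest mean (3 UPR genes). A gene was tested where 3 or more arrays had it brighter than the array's median value. One linear model with 6 group means over all 22 arrays was fitted by lmFit and moderated by eBayes (limma 3.58.1, R 4.3.3; residual degrees of freedom 16, prior 6.06), and p-values were adjusted over 9880 genes by the Benjamini-Hochberg method. Adjusted and unadjusted p-values and standard errors are limma's, unless called exact permutation p-values, which are two-sided and exchange labels within a time. The median residual SD was 0.069 for UPR genes and 0.076 for all tested genes. The arrays carry no read depth, and their number limits the precision. Correlations used 100000 permutations within groups. Scripts were tested on simulated data. Genes given in full are Hspa5, Ddit3, Xbp1, Atf4 and Ern1, the 3 higher and 3 lower genes with the smallest p at each time and on the average, and the 2 with the smallest p in each other contrast; the groups that do not overlap (P4hb, Asns) were added after their values were seen, as was Sdf2l1. The UPR genes and lists were chosen with earlier results of these data known. Alternatives were other filters, normalizations, probe set rules, variance models and array sets, and a replicate block. Protein sequences were not used here.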

Additional observations from a re-analysis of the deposited data

Results flagged for a closer look

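Single arrays stood apart from the rest of their group of 4 for 7 of 136 combinations of a gene and a group (5.15%), judged by the gap to the nearest array over the range of the group, and chance gives about 1 in 20. Of these, 2 were in DMSO replicate 1 at 1 day: Hsp90b1 at 12.15, where the other arrays lay between 11.99 and 12.01, and Asns at 12.37, where they lay between 12.09 and 12.12. Asns was also low in DMSO replicate 2 at 4 days, at 11.996 (others 12.04 to 12.05). Hyou1 was high in celastrol replicate 1 at 6 h, at 11.19 (others 11.01 to 11.04), and Pdia6 in celastrol replicate 3 at 6 h, at 10.03 (others 9.97 at most). Dnajc3 was high in DMSO replicate 3 at 6 h, at 10.18 (others 9.96 to 9.999), and Derl1 in DMSO replicate 1 at 4 days, at 11.38 (others 11.35).

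For 3 genes every celastrol array lay on one side of the DMSO mean at one time and on the opposite side at another, and the difference between the times was tested in limma. The celastrol effect on Canx, calnexin, differed by -0.076 for 1 day minus 6 h (adjusted p = 0.691) and by 0.092 for 4 days minus 1 day (adjusted p = 0.826). That on Sel1l, the ERAD adaptor, differed by -0.12 for 1 day minus 6 h (adjusted p = 0.605), and that on Sec61b, the translocon subunit, by 0.17 for 4 days minus 6 h (adjusted p = 0.997). None of these 4 differences passed the test.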

How the results depend on the processing

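For celastrol against DMSO, 0 UPR genes passed at each time under 11 other settings, on the average under 10, and with each of 22 arrays left out. The 50 values of named genes stayed below the threshold throughout, with a lowest adjusted p of 0.0696 (Chac1, DMSO, 4 days minus 1 day). With array weights 1 UPR gene, Manf, passed in DMSO mice at 4 days against 1 day (log2 change -0.19, adjusted p = 0.0455, against -0.17 and 0.193 without weights), in a weighting that stopped before its convergence tolerance. The sign turned in 8 named values, whose changes ran from -0.051 (Ern1 at 1 day) to 0.017 (Hspa5 at 1 day). At 4 days Hspa5 was 0.0093 with quantile normalization again, Ddit3 0.0047 with the replicate block, and Xbp1 -0.0072 with median centring and -0.0024 with the replicate block. On the average Atf4 was 6.7e-04 with array weights and 0.0031 with the replicate block. With single arrays left out, the ranges were -0.068 to 0.0090 for Ddit3 and -0.042 to 0.0018 for Atf4 at 6 h, -0.018 to 0.057 for Hspa5 and -0.094 to 0.012 for Ern1 at 1 day, -0.018 to 0.016 for Hspa5, -0.033 to 0.011 for Ddit3 and -0.024 to 0.053 for Xbp1 at 4 days, and -0.012 to 0.012 for Atf4 on the average. Without 1 array, 29 of the 50 values moved by over 1.5 times or turned, and 21 of these kept their sign. Beside the changes given with the genes (Hspa5 and Ern1 at 6 h, Atf4 and Manf at 1 day), these became, at 6 h, -0.066 for Sec61b without DMSO replicate 4 and -0.025 for Atf6 without celastrol replicate 1. At 1 day they became -0.066 for Ddit3 without DMSO replicate 1, 0.066 for Xbp1 without DMSO replicate 4 and 0.037 for Dnajb11 without celastrol replicate 3. At 4 days, without celastrol replicate 1, they became 0.069 for Sel1l, -0.16 for Pdia3 and 0.055 for Atf4, and without celastrol replicate 2 0.024 for Canx and 0.13 for Atf4. Ern1 was 0.024 without DMSO replicate 1. On the average the ranges were 0.0065 to 0.032 for Hspa5 and -0.042 to -0.0028 for Ern1, and Manf was -0.033 without celastrol replicate 2 of 1 day, which also gave an effect of 0.11 for 4 days minus 1 day. In DMSO mice P4hb was 0.084 at 1 day and 0.044 at 4 days against 6 h without replicate 2 of 6 h, and Asns -0.080 at 4 days against 1 day without replicate 1 of 1 day. Of the other settings, array weights moved 11 values by over 1.5 times or turned them, median centring 8, leaving out the pair of least typical arrays 8, quantile normalization again 6 and the replicate block 4. The median of the UPR genes at 1 day ranged from -0.040 to 7.3e-05, the upper end without celastrol replicate 2. The cause was not tested. Replicate numbers showed no general sign of pairing, though these values cannot exclude it for some arrays. Over 51 pairs with the same number the correlation of deviations ran from -0.44 to 0.41 (median -0.027, against 0.010 for other pairs). It was over 0.1 for 10 of these pairs, and 3 arrays correlated best with their own number. With the replicate block 0 UPR genes passed in any comparison, and the median change at 6 h was 0.031. Few arrays per group, and dim signal for Ppp1r15a and Trib3, limit what could be seen.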

Other observations

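The arrays of a group did not share the UPR genes' highest and lowest values evenly. DMSO replicate 1 at 1 day was the highest of its 4 arrays for 16 of the 32 tested genes and the lowest for 5, and its median deviation from the group means was 0.041. At 1 day celastrol replicate 1 was the highest of 3 arrays for 19 genes, and replicate 2 the lowest for 15. Such counts were not made over all tested genes, so whether they are particular to the UPR genes was not tested. DMSO replicate 1 at 1 day also had the highest array median of its group, 8.63. Without celastrol replicate 2 and DMSO replicate 1 the median change of the UPR genes at 1 day was -0.0097, and 0 genes passed.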
